A study of Mus musculus with 6 samples.

Results

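The 9 genes described here are the Hedgehog receptors and co-receptors Ptch1, Gas1, Boc, Hhip and Smo, the pathway inhibitor Sufu and the transcription factors Gli1, Gli2 and Gli3. They were chosen by name, for their place in the pathway, with earlier results of these data known. All 9 had a row among the 14228 genes listed, and all 9 passed the filter on low counts, which left 10148 genes for testing. They were read in 3 libraries of stomach fibroblasts from mice with induced gastric cancer (cancer-associated fibroblasts, CAF) and 3 libraries from mice without induction (normal). All mice were 8 weeks old and carried the triple-transgenic iLgr5;GLI2A combination, in which an active GLI2 can be switched on in cells that use the Lgr5 promoter. The CAF mice were gavaged with tamoxifen in corn oil on 5 days and fed doxycycline chow over 3 weeks, and their water also held doxycycline during the initial 3 days. The normal mice received corn oil and no doxycycline. Tumour growth and the inducing drugs therefore cannot be told apart in any value below. CAF libraries 1, 2 and 3 held cells of 1, 2 and 2 mice, and normal libraries 1, 2 and 3 held cells of 1, 1 and 2 mice.

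Hedgehog signalling passes mostly from epithelium to the mesenchyme around it in the gut. The secreted ligands Sonic, Indian and Desert hedgehog bind Patched receptors, which otherwise hold the membrane protein Smoothened inactive. Active Smoothened, in the primary cilium, releases the GLI transcription factors from their inhibitor SUFU. GLI activity raises Gli1, Ptch1 and Hhip, so these genes serve both as pathway parts and as its readouts. PTCH1 and HHIP bind ligand and dampen the signal, which makes them negative feedback genes.

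Cells had been sorted as live and podoplanin-positive after removal of CD31-, CD45- and EpCAM-positive cells, and the 3′ ends of their polyadenylated RNA were counted by MARS-seq. Depth ranged from 644522 to 6422568 counts per library in CAF and from 768420 to 3259644 in normal libraries. Genes of gastric gland cells (26 genes of pit, neck, chief, parietal and enteroendocrine cells) took 0.618% to 0.877% of the counts in CAF libraries, against 20.2%, 16.5% and 4.21% in normal libraries 1, 2 and 3. Fibroblast identity genes, 19 in all, took 1.86%, 4.46% and 5.41% in CAF libraries 1, 2 and 3, against 0.712%, 1.31% and 2.85% in normal libraries 1, 2 and 3. The gland share did not overlap between the groups, whereas the fibroblast share did, with CAF library 1 below normal library 3. Epcam RNA was present in spite of the sort, at 114 to 233 CPM in CAF and 13.8 to 150 CPM in normal libraries. CPM is the count per 1000000 on library sizes scaled by trimmed mean of M-values. In such bulk samples, fewer cells of a type and less RNA per cell cannot be told apart.

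The promoters of Ptch1, Gas1 and Hhip are shown because these were the 3 genes whose CAF and normal libraries did not overlap. Each runs from 250 bases before to 50 bases after the start site in the RefSeq table of build GRCm38.p6, on the gene's own strand. Capitals mark the letters CCACCC on either strand, the core of the GLI consensus.

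Ptch1: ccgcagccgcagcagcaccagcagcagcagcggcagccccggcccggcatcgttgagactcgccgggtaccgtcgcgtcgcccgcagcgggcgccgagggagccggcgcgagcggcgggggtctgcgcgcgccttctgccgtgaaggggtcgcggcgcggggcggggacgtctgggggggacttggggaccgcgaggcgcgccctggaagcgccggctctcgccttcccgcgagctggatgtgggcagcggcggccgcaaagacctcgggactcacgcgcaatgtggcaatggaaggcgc

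Gas1: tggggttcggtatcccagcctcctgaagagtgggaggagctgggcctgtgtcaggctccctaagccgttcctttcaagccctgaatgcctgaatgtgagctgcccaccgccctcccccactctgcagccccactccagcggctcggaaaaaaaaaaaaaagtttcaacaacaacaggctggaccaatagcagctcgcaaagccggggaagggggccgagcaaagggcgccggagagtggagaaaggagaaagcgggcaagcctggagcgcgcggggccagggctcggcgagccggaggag

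Hhip: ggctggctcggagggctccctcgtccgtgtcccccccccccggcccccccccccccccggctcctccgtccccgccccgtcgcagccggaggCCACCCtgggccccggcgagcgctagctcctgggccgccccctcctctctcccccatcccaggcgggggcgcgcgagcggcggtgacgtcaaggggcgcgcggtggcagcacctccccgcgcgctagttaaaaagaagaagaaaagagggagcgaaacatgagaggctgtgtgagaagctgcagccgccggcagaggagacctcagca

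These windows lie on the minus strand at chr13:63565686-63565985, chr13:60177486-60177785 and chr8:80057959-80058258. Hhip held CCACCC once, and Ptch1 and Gas1 held none. The Ptch1 window lies inside the gene as GENCODE M21 gives it, which on the minus strand begins at chr13:63573598. The Gas1 window lies wholly before the gene as GENCODE M21 gives it, which begins at chr13:60177365. No window at either GENCODE start was searched, so the results hold for these start sites of Ptch1 and Gas1 only. CCACCC on either strand was present in 31.5% of all 32851 promoters in the table. The full consensus GACCACCCA was in none of the 7 promoters found for these genes (Gli2, Gli3, Ptch1, Hhip, Smo, Sufu and Gas1), exactly or with 1 mismatch on either strand. An exact match was present in 0.253% of all promoters, and a match with at most 1 mismatch in 6.74%. The Ptch1 window held 47 CG dinucleotides, the Hhip window 30 and the Gas1 window 17, against a median of 7 over all promoters. Gli1 and Boc are named without a promoter.

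Of the 9 genes, Ptch1, Gas1 and Hhip were higher in every CAF library than in any normal library, at about 2.57 to 3.25 times the level, and the other 6 overlapped. By 95% exact Poisson intervals (counting error only), the nearest CAF and normal libraries overlapped for Gas1 and Hhip but not for Ptch1. Ptch1, Gas1 and Hhip were also separated when libraries were scaled by relative log expression, by upper quartiles or by the authors' own factors. Upper quartiles also separated Sufu, by 1.003 times. Over all genes tested, 10.6% had every CAF library above every normal one. The quasi-likelihood test of edgeR, adjusted by Benjamini-Hochberg over all genes tested, called 0 of the 9 at 0.05, where it called 1.10% of all genes. At an unadjusted p below 0.05, edgeR gave 3 of the 9 (Ptch1, Gas1 and Hhip), where it gave 15.3% of all genes. DESeq2 called 2 of the 9, Ptch1 and Gas1, where it called 7.28% of all genes with an adjusted p. The authors' deposited table likewise has adjusted p-values below 0.05 for Ptch1 and Gas1, and for 6.37% of all genes. Limma-voom called 0 of the 9, where it called 0.641% of all genes. The median log2 fold change of the 9 was 0.49 and 7 were positive, where the median of all genes tested was 0.06 and 53.9% were positive. With epithelial marker genes removed before scaling, the log2 fold change of Ptch1 was 1.69, of Gas1 1.65 and of Hhip 1.35. That step took out the rows of the listed genes only and left the other RNA of the same cells, whose part in these values was not tested.

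**Figure D1:**
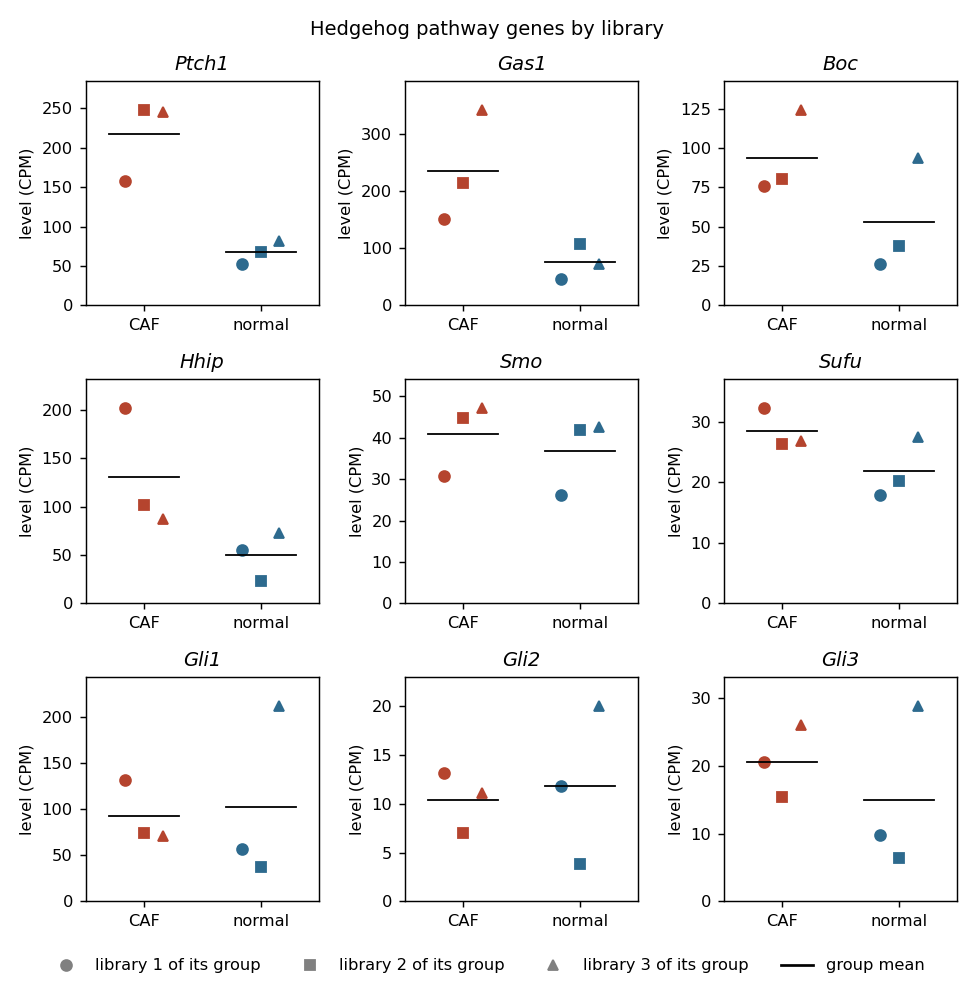
Level of each of the 9 genes in CPM (vertical axes, from 0) in the 3 CAF libraries, left, and the 3 normal libraries, right; each symbol is a library and each bar the group mean. Ptch1, Gas1 and Hhip show no overlap between the groups, and Gli1, Gli2 and Gli3 are all highest in normal library 3.

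Ptch1 encodes the main Hedgehog receptor and is itself a target of GLI factors (chr13:63508328-63573598, minus strand, GENCODE M21 on GRCm38). Ptch1 was at 158, 247 and 245 CPM in CAF libraries 1, 2 and 3, against 53.0, 67.1 and 81.3 CPM in normal libraries 1, 2 and 3. These values rest on 108, 1792 and 1813 counts in CAF and 130, 53 and 65 counts in normal libraries. The lowest CAF library was 1.94 times as high as the highest normal library, the widest gap of the 9 genes. The mean of Ptch1 was 217 ± 51.0 CPM over the CAF libraries and 67.2 ± 14.1 CPM over the normal ones (SD, n = 3 each). Its log2 fold change was 1.70 ± 0.33 (SE), or 3.25-fold with a 95% interval of 1.90 to 5.57. Ptch1 ranked 175 by p among the 10148 genes and did not pass after adjustment (edgeR adjusted p = 0.0617). Without normal library 3 it passed (edgeR adjusted p = 0.0236), in a fit that called 10.0% of all genes. With DESeq2 the adjusted p was 0.00044, and the authors' deposited table gives Ptch1 a log2 fold change of 1.69 with an adjusted p of 0.000488.

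Gas1 encodes a membrane-anchored protein that binds ligand together with PTCH1 and promotes signalling (chr13:60174405-60177365, minus strand). Gas1 was at 151, 215 and 341 CPM in CAF libraries 1, 2 and 3, against 45.7, 108 and 72.5 CPM in normal libraries 1, 2 and 3. CAF library 3 was the highest and normal library 1 the lowest. The fitted change was 3.16-fold (95% interval 1.53 to 6.53), and Gas1 did not pass (edgeR adjusted p = 0.12). DESeq2 gave an adjusted p of 0.0235, and the authors' deposited table gives 0.0261 at a log2 fold change of 1.63.

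Boc encodes an immunoglobulin-family co-receptor with a part like that of GAS1 (chr16:44485049-44558897, minus strand). Boc was at 76.1, 80.0 and 124 CPM in CAF libraries 1, 2 and 3, against 26.5, 38.0 and 93.8 CPM in normal libraries 1, 2 and 3. Normal library 3 lay within the CAF range, and the other normal libraries lay below it. The change was 1.80-fold (95% interval 0.799 to 4.06) and did not pass (edgeR adjusted p = 0.506). Without normal library 3 the log2 fold change of Boc was 1.5 (edgeR adjusted p = 0.0524), and against normal library 3 as the sole normal library it was 0.06.

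Hhip encodes a membrane protein that binds Hedgehog ligands and keeps them from the receptor, and it too is a GLI target (chr8:79965851-80058006, minus strand). Hhip was at 202, 102 and 87.4 CPM in CAF libraries 1, 2 and 3, against 55.1, 22.8 and 72.5 CPM in normal libraries 1, 2 and 3. CAF library 1 was the highest, and CAF library 3 was 1.2 times as high as normal library 3. CAF library 3 held 646 counts and normal library 3 held 58. Their counting intervals, 80.8 to 94.4 CPM and 55.1 to 93.8 CPM, overlapped. Hhip was 2.57-fold higher in the fit (95% interval 1.13 to 5.83) and did not pass (edgeR adjusted p = 0.255; DESeq2 adjusted p = 0.152). Smooth muscle genes without Hhip (8 genes) summed to 2805, 2013 and 967 CPM in CAF libraries 1, 2 and 3 and to 1314, 730 and 1498 CPM in normal libraries 1, 2 and 3. Tagln made up 1788, 1073 and 443 CPM of these sums in CAF and 675, 295 and 710.4 CPM in normal libraries 1, 2 and 3. Myh11, the smooth muscle myosin, went the other way and fell, to 20.5, 47.9 and 30.6 CPM in CAF, against 184, 134 and 141 CPM in normal libraries 1, 2 and 3 (edgeR adjusted p = 0.0486). Actg2 and Synm were higher in every CAF library than in any normal library. Their log2 fold changes were 1.68 (edgeR adjusted p = 0.0953) and 1.05 (edgeR adjusted p = 0.324), and neither passed. Tagln, Cnn1 and Smtn overlapped between the groups, at log2 fold changes of 0.97, -0.37 and -0.25. Of the 9 smooth muscle genes tested, Hhip among them, 6 were positive. Pericyte genes (8 genes) summed to 663, 513 and 310 CPM in CAF and to 100.4, 88.7 and 295 CPM in normal libraries 1, 2 and 3. The part of either cell type in the level of Hhip was not tested.

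Smo encodes Smoothened, the signal transducer (chr6:29735503-29761365, plus strand). Smo was at 30.7, 44.7 and 47.1 CPM in CAF libraries 1, 2 and 3, against 26.1, 41.8 and 42.5 CPM in normal libraries 1, 2 and 3. Library 1 was the lowest in both groups, and the ranges nearly coincided. Its change was 1.13-fold, with an interval of 0.644 to 2.00 (edgeR adjusted p = 0.868). Its sign turned without normal library 1, where the log2 fold change was -0.054. Sufu encodes the cytoplasmic inhibitor of the GLI factors (chr19:46396896-46488804, plus strand). Sufu was at 32.2, 26.4 and 26.8 CPM in CAF libraries 1, 2 and 3, against 18.0, 20.3 and 27.5 CPM in normal libraries 1, 2 and 3. It was 1.30-fold higher with an interval of 0.741 to 2.28 and did not pass (edgeR adjusted p = 0.695). Both intervals include no change and a doubling.

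**Figure D2:**
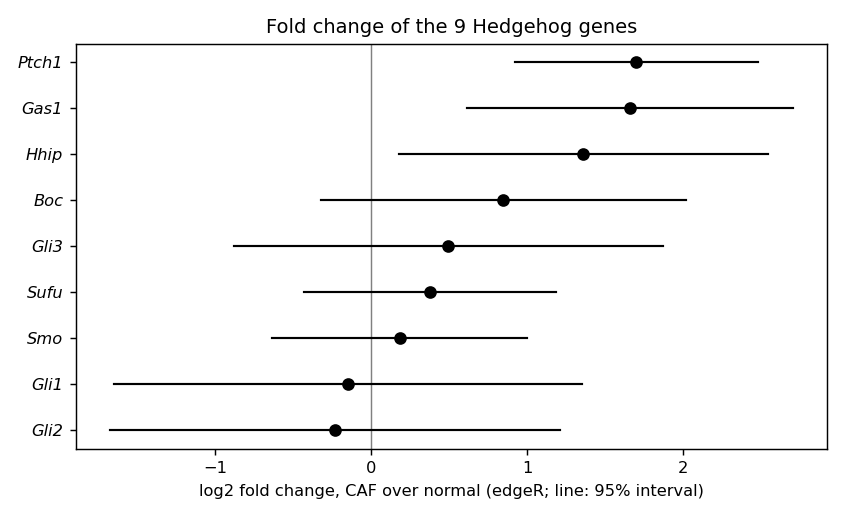
Fitted log2 fold change of each gene, CAF over normal, with its 95% interval (edgeR, 3 libraries per group; horizontal axis on the log2 scale). The intervals of Ptch1, Gas1 and Hhip lie above 0, and those of the other 6 genes include 0.

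Gli1 encodes the GLI activator that the pathway itself induces (chr10:127329882-127341974, minus strand). Gli1 was at 132, 74.3 and 70.5 CPM in CAF libraries 1, 2 and 3, against 57.1, 36.7 and 211 CPM in normal libraries 1, 2 and 3. Normal library 3 was higher than every CAF library, and normal libraries 1 and 2 were lower than every CAF library. Its log2 fold change was -0.15 ± 0.65 (SE), with a fold interval of 0.318 to 2.55 (edgeR adjusted p = 0.95). The sign turned without normal library 3 (log2 fold change 0.86, edgeR adjusted p = 0.251) and without CAF library 3 (0.018), and with limma-voom (0.21). Against normal library 3 as the sole normal library it was -1.17. The last 62 bases of Gli1 overlap those of Arhgap9, a gene on the other strand, and whether strand was used in counting is not given in the sources used here. Arhgap9 had 24, 110 and 59 counts in CAF libraries 1, 2 and 3 and 5, 1 and 6 counts in normal libraries 1, 2 and 3, fewer than Gli1 in every library. Non-coding genes on the other strand also overlap Gli1 (Gm47200), Gli3 (Gm6556), Hhip (Gm27820) and Gas1 (Gm48488), away from the 3′ ends, and were not analysed here.

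Gli2 encodes the main activator of the GLI family and is the gene whose active form the transgene carries (chr1:118834132-119053619, minus strand). Gli2 was at 13.2, 7.04 and 11.1 CPM in CAF libraries 1, 2 and 3, against 11.8, 3.80 and 20.0 CPM in normal libraries 1, 2 and 3. Normal library 2 held 3 counts of Gli2, so that its level could lie between 0.784 and 11.1 CPM (95% exact Poisson interval, counting error only). The CAF range lay within the normal range, with a log2 fold change of -0.23 ± 0.62 (SE; edgeR adjusted p = 0.912). The sign turned without normal library 3 (0.18) and without CAF library 2 (0.038). The transgene is driven in Lgr5-expressing epithelial cells, which the sort should remove, and whether its transcript would count toward this row is not known, so the row is no check of the labels. Lgr5 was at 1.46, 8.97 and 7.57 CPM in CAF libraries 1, 2 and 3 and at 3.26, 8.87 and 0 CPM in normal libraries 1, 2 and 3 (edgeR adjusted p = 0.776). These levels rest on 1, 65 and 56 counts in CAF and 8, 7 and 0 counts in normal libraries. At these depths 3 counts are 4.39 CPM in CAF library 1 and 3.75 CPM in normal library 3, so low values there do not show absence. Gli3 encodes the member that acts mainly as a repressor (chr13:15463235-15730026, plus strand). Gli3 was at 20.5, 15.3 and 26.0 CPM in CAF libraries 1, 2 and 3, against 9.79, 6.33 and 28.8 CPM in normal libraries 1, 2 and 3. Its fold interval was 0.543 to 3.65 (edgeR adjusted p = 0.77), and against normal library 3 as the sole normal library its log2 fold change was -0.42, in place of 0.49.

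All 3 GLI factors were highest in normal library 3 and lowest in normal library 2. Gli1 took 79.6%, 76.9% and 65.5% of the summed counts of the GLI factors in CAF libraries 1, 2 and 3, against 72.5%, 78.4% and 81.2% in normal libraries 1, 2 and 3. The 95% exact binomial interval of this share was 71.0% to 86.6% in CAF library 1, 62.1% to 68.8% in CAF library 3 and 61.8% to 90.2% in normal library 2. Genes of subepithelial fibroblasts and telocytes (10 genes) summed to 1127, 1215 and 620 CPM in CAF libraries 1, 2 and 3 and to 377, 414 and 1538 CPM in normal libraries 1, 2 and 3. Adventitial fibroblast genes (10 genes) summed to 2903, 3147 and 4002 CPM in CAF and to 2102, 2143 and 5905 CPM in normal libraries 1, 2 and 3. Both sums were highest in normal library 3, as the GLI factors were, but 2 of the 10 subepithelial and telocyte genes were themselves highest there, F3 at 703 CPM and Bmp5 at 395 CPM, and 4 of the 10 adventitial genes. Their part in the GLI levels was not tested.

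A ratio of counts within a library does not depend on how libraries are scaled, so 5 such ratios were compared by an exact two-sided permutation test over the 6 libraries, whose smallest possible p is 0.1 with 3 against 3. The Hhip/Gli1 ratio was 1.53, 1.38 and 1.24 in CAF libraries 1, 2 and 3, against 0.964, 0.627 and 0.345 in normal libraries 1, 2 and 3. It was the 1 ratio of the 5 with no overlap between the groups, with a difference of 1.21 on the log2 scale (exact p = 0.1, adjusted over the 5 ratios 0.333). The Ptch1/Gli1 ratio was 1.2, 3.33 and 3.48 in CAF libraries 1, 2 and 3, against 0.929, 1.81 and 0.386 in normal libraries 1, 2 and 3. CAF library 1 lay below normal library 2, and the log2 difference was 1.47 (exact p = 0.2, adjusted 0.333). The sign of Hhip/Ptch1 turned without CAF library 3 (0.085) and without normal library 1 (0.044). Hhip/Ptch1 differed by -0.26 on the log2 scale (exact p = 1, adjusted 1), Gas1/Boc by 0.65 (exact p = 0.4, adjusted 0.5) and Gli3/Gli2 by 0.68 (exact p = 0.2, adjusted 0.333). None of the 5 could pass 0.05 in this design.

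**Figure D3:**
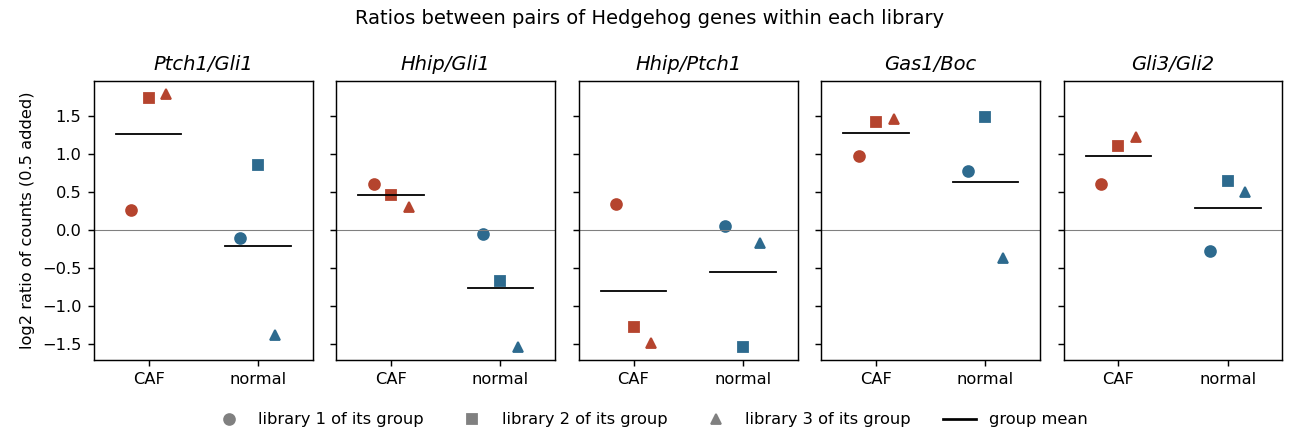
Log2 ratio of counts of 2 genes within each library (vertical axis, 0.5 added to each count), CAF left and normal right in each panel; symbols are libraries and bars group means. Hhip/Gli1 separates the groups, and in Ptch1/Gli1 CAF library 1 lies below normal library 2.

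Since the share of fibroblast RNA varied between libraries, each gene was also set against the summed counts of the 19 fibroblast identity genes of its library. Ptch1 then had 9.07, 6.25 and 5.22 counts per 1000 fibroblast counts in CAF libraries 1, 2 and 3, against 5.62, 4.54 and 2.99 in normal libraries 1, 2 and 3. The groups overlapped on this scale, and the log2 difference was 0.65 (exact permutation p = 0.2, adjusted over the 9 genes 0.45), where the difference on the CPM scale was 1.70. Gas1 had 8.65, 5.43 and 7.25 per 1000 in CAF, against 4.85, 7.25 and 2.67 in normal libraries, a log2 difference of 0.62 (exact p = 0.2, adjusted 0.45). Hhip had 11.6, 2.58 and 1.86 per 1000 in CAF, against 5.84, 1.57 and 2.67 in normal libraries, a log2 difference of 0.39 (exact p = 0.7, adjusted 0.787). Its sign turned without CAF library 1 (-0.41) and without normal library 2 (-0.049). Gli1 had 7.56, 1.88 and 1.5 per 1000 in CAF, against 6.05, 2.50 and 7.74 in normal libraries, a log2 difference of -0.82 (exact p = 0.3, adjusted 0.45). Without CAF library 1 the difference of Gli1 was -1.54, and without CAF library 3 it was -0.38. Gli2 (-1.02), Smo (-0.87), Sufu (-0.65), Gli3 (-0.34) and Boc (-0.03) also had negative log2 differences (exact permutation p from 0.2 to 0.9). With the full list none of the 9 genes was separated between the groups. This depended on the list: with Col1a1, Col1a2, Col3a1, Sparc and Vim removed from it, Ptch1 and Gas1 were separated. Those 5 genes had edgeR log2 fold changes of 2.02, 1.09, 2.02, 1.29 and 0.90, and none passed (edgeR adjusted p from 0.178 to 0.369). Of the 19 genes of the list 16 were positive. Fstl1 (2.27) and Pdpn (2.29), which stayed in it, had higher values than any of the 5. As the divisor is shared, removal of the 5 genes raised the log2 difference of all 9 Hedgehog genes by the same amount, that of Gli1 from -0.82 to -0.43. The separation thus depends on which genes were removed. Ptch1 then had 21.1, 17.5 and 12.9 counts per 1000 in CAF libraries 1, 2 and 3, against 11.2, 9.49 and 5.16 in normal libraries 1, 2 and 3, a log2 difference of 1.04 (exact permutation p = 0.1, the smallest possible, adjusted 0.45). Gas1 had 20.1, 15.18 and 17.9 per 1000 in CAF, against 9.68, 15.17 and 4.61 in normal libraries, a log2 difference of 1.01 (exact permutation p = 0.1, adjusted 0.45), and CAF library 2 and normal library 2 were nearly equal. The fibroblast list itself had a median log2 fold change of 1.09, with 0 of 19 genes called by edgeR and 6 at an unadjusted p below 0.05, so it is not a constant base.

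**Figure D4:**
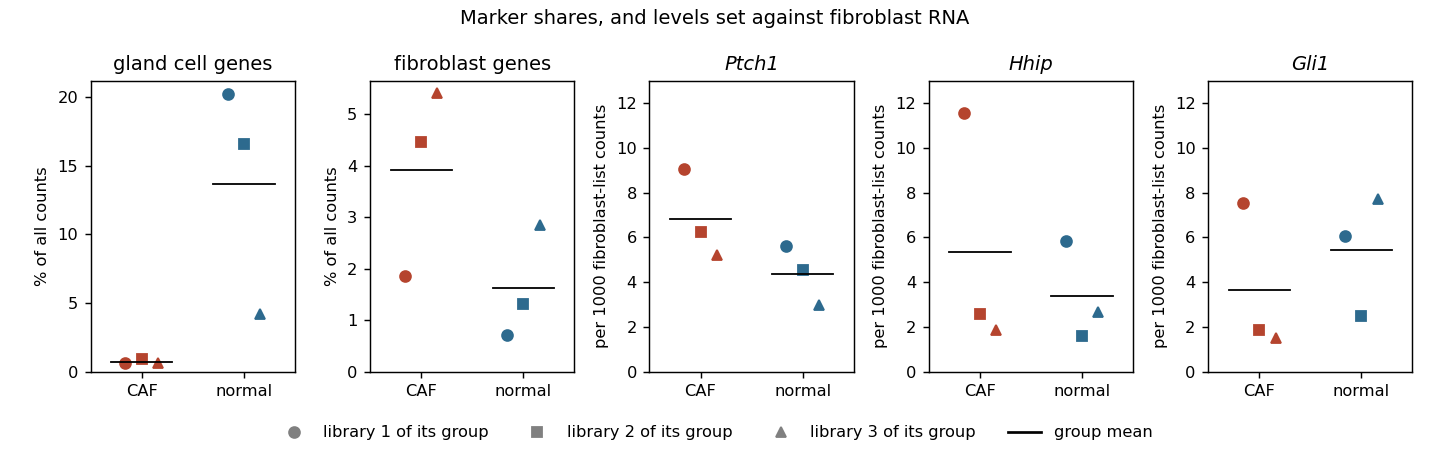
Share of all counts in gland cell and fibroblast genes (first pair of panels, in %), and Ptch1, Hhip and Gli1 per 1000 counts of the fibroblast list (last 3 panels), CAF left and normal right; symbols are libraries and bars group means. Gland genes stay under 1% in CAF and reach 20.2% in normal library 1. All 3 Hedgehog genes overlap between the groups when set against the full list of 19 fibroblast genes. Without 5 of these, whose fitted levels were higher in CAF but did not pass, Ptch1 does not overlap.

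Across the 6 libraries, log2 CPM of Ptch1 and Gas1 had a Pearson r of 0.93, and Gli1 had an r of 0.86 with Gli2 and 0.83 with Gli3. Ptch1 and Gli1 had an r of 0.16, and Gas1 and Gli1 of -0.07. These are descriptions over 6 points that share depth, gland share and group. The genes whose pattern was most like that of Ptch1, among 9342 tested genes with a mean of at least 20 counts, were Mpp6 (r = 0.996), Serpinb9b (0.993) and Tnfsf13b (0.993). Tnfsf13b, the B cell survival factor BAFF, was at 14.6, 33.5 and 28.1 CPM in CAF libraries 1, 2 and 3, against 2.45, 2.53 and 5.00 CPM in normal libraries 1, 2 and 3. Those most like Gli1 were Npr2 (0.994), Septin5 (0.992) and Uck1 (0.992). Npr2, a natriuretic peptide receptor, was at 114, 58.0 and 57.6 CPM in CAF, against 37.5, 22.8 and 173 CPM in normal libraries 1, 2 and 3, the same order of libraries as for Gli1. Those most like Hhip were Ddx19a (0.999), Palld (0.992) and Galnt2 (0.99). With 6 points such values are common: 97, 104 and 87 genes had an r above 0.95 with Ptch1, Gli1 and Hhip.

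The wider pathway was read through 5 lists. Of the ligands, Shh and Dhh had no row and were not analysed here. Ihh, Indian hedgehog, was at 4.39, 1.66 and 1.62 CPM in CAF libraries 1, 2 and 3, against 71.8, 32.9 and 0 CPM in normal libraries 1, 2 and 3. It had 3, 12 and 12 counts in CAF and 176, 26 and 0 counts in normal libraries. As 3 counts are 3.75 CPM in normal library 3, the 0 there does not show absence. The high values fell in the normal libraries with the most gland RNA, and the part of gland RNA in them was not tested. Ihh was below the filter. Without the filter its log2 fold change was -4.12 (edgeR adjusted p = 0.135), and with DESeq2 its adjusted p was 0.0228. Of the list of 9 ligands and genes of ligand release, 6 had a row, 2 were tested and 0 were called by edgeR, with none at an unadjusted p below 0.05. Scube1, which helps release ligand from cells, was at 96.6, 56.0 and 27.3 CPM in CAF, against 18.0, 21.5 and 110 CPM in normal libraries 1, 2 and 3 (edgeR adjusted p = 0.923), and Disp1, the ligand exporter Dispatched, was 0.922-fold (edgeR adjusted p = 0.951).

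Of the other receptors and binding proteins, 6 of 7 were tested, 0 were called by edgeR, and 1 had an unadjusted p below 0.05. All 6 were positive, and their median was 1.43 on the log2 scale, where 53.9% of all genes tested were positive and the median of all was 0.06. Of fibroblast identity genes 84.2% were positive (median 1.09), of pericyte genes 85.7% (median 1.30) and of adventitial fibroblast genes 66.7% (median 0.05). A rise beyond that of stromal genes was not tested. Cdon, the co-receptor related to BOC, was at 2.93, 20.6 and 61.1 CPM in CAF, against 5.30, 17.7 and 11.3 CPM in normal libraries 1, 2 and 3, and CAF library 3 alone stood above the rest (edgeR adjusted p = 0.53). Gpc3, a glypican that binds Hedgehog ligands and limits the signal, was at 429, 109 and 219 CPM in CAF, against 34.3, 35.5 and 170 CPM in normal libraries 1, 2 and 3 (edgeR adjusted p = 0.361).

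Of 25 genes between Smoothened and the GLI factors, 22 were tested and 0 called by edgeR, with none at an unadjusted p below 0.05 and a median log2 fold change of 0.04. Mgrn1, a ubiquitin ligase that lowers Smoothened at the cell surface, was at 81.9, 73.1 and 79.7 CPM in CAF, against 109, 96.3 and 121 CPM in normal libraries 1, 2 and 3 (edgeR adjusted p = 0.474), and Tulp3, a ciliary trafficking protein, was 1.67-fold (edgeR adjusted p = 0.531). The 35 genes of the primary cilium had 27 tested, 0 called by edgeR and none at an unadjusted p below 0.05, with a median of 0.14. The 2 of smallest p were Bbs9, at a log2 fold change of -0.91 (edgeR adjusted p = 0.397), and Wdr19, at 1.03 (edgeR adjusted p = 0.51).

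Of 20 genes described as Hedgehog targets in gut stroma or elsewhere, 19 were tested and 0 called by edgeR. Their median log2 fold change was 0.44, and values ran from -2.13 to 3.85. Of the 19, 10 were positive, where 53.9% of all genes tested were, and 5 had an unadjusted p below 0.05, where 15.3% of all genes did. These 5 went both ways: Wnt4 and Bmp5 were lower in CAF (log2 fold changes -1.30 and -2.13), and the rest were higher. Nkx2-3, a homeobox gene of gut mesenchyme, was at 17.6, 5.80 and 11.8 CPM in CAF libraries 1, 2 and 3, against 0.816, 0 and 1.25 CPM in normal libraries 1, 2 and 3. Its groups did not overlap and it did not pass (log2 fold change 3.85 ± 0.86 SE, edgeR adjusted p = 0.0766), whereas DESeq2 gave an adjusted p of 0.0123. These levels rest on 141 counts over the CAF libraries and 3 over the normal ones, so the fitted fold is no bound; the ratio of summed counts per library size was 12.4 (95% exact interval 4.15 to 60.8, counting error only). Bcl2, the survival gene, was at 62.9, 46.4 and 35.7 CPM in CAF, against 20.4, 13.9 and 26.3 CPM in normal libraries (edgeR adjusted p = 0.177). Foxf1, Bmp4 and Bmp5 were chosen after their values were seen. Foxf1, a forkhead gene of gut mesenchyme, was at 36.6, 60.0 and 35.0 CPM in CAF, against 51.8, 43.1 and 184 CPM in normal libraries 1, 2 and 3 (edgeR adjusted p = 0.467). Bmp4, a secreted growth factor, was at 146, 149 and 86.7 CPM in CAF, against 102.8, 100.1 and 502 CPM in normal libraries (edgeR adjusted p = 0.61). Bmp5 was at 42.4, 52.9 and 18.4 CPM in CAF, against 49.0, 51.9 and 395 CPM in normal libraries (edgeR, log2 fold change -2.13, adjusted p = 0.305). All 3 were highest in normal library 3, the library in which the GLI factors were also highest. Foxf2, Wnt4, Osr1, Tbx2, Tbx3 and Barx1 of the list were also highest there. The rest of the list was not, among them Foxl1, Bmp7, Wnt5a, Sfrp1, Ccnd1, Ccnd2, Mycn, Bcl2, Osr2 and Nkx2-3. Neither were Ptch1 and Hhip. A link between these targets and the GLI factors was not tested.

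**Figure D5:**
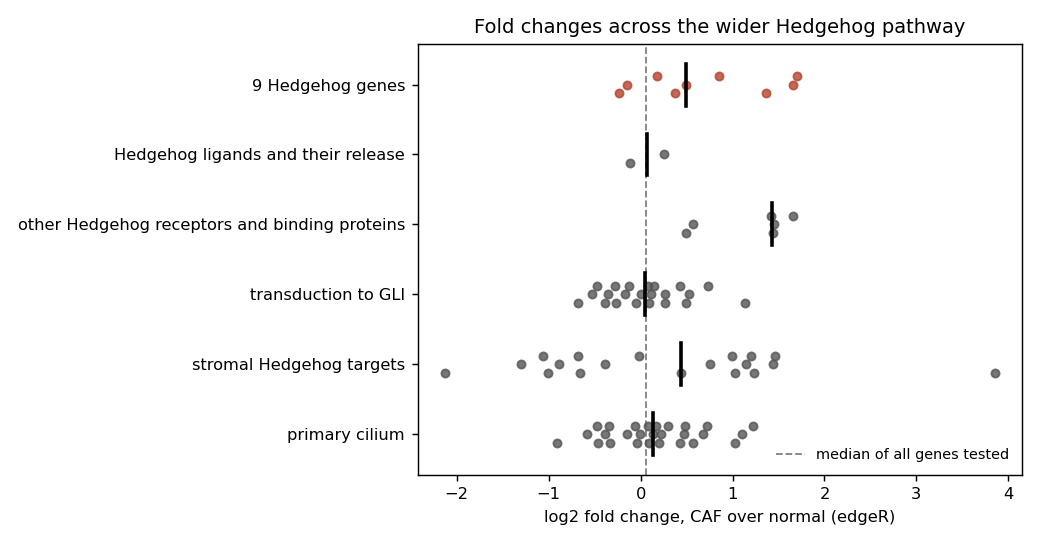
Fitted log2 fold change (horizontal axis, CAF over normal) of every tested gene in 6 lists of the Hedgehog pathway, 1 dot per gene, with list medians as black bars; vertical offsets within a list only separate the dots. The other receptors and binding proteins all lie above 0, and transduction and cilium genes lie around the median of all genes (dashed line, 0.06).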

How the data were processed

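RNA 3′ ends were counted in 6 libraries of sorted mouse stomach fibroblasts. Cutadapt, STAR, HTSeq and DESeq2 (no versions) and the build mm10 are listed by the submitters' processing notes. The annotation, the use of strand and any collapsing of molecular identifiers were not given in the sources used here. Raw counts per gene symbol, which were tested, were deposited by the authors. Per the file headers they also deposited a normalized signal (raw count over 1 size factor per library), a regularized log2 value (not used) and their own comparison, with fold change (log2), p-value and its adjusted form.

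Counts were tested with edgeR 4.0.16 (R 4.3.3): filterByExpr, trimmed mean of M-values, glmQLFTest on group, Benjamini-Hochberg over 10148 genes, threshold 0.05. Standard errors and 95% intervals were derived from each F statistic and are approximate. Alternatives were DESeq2 1.42.0, limma-voom (limma 3.58.1), other scalings and filters, removal of epithelial marker genes, each library left out, normal libraries 1 and 2 left out, and the number of mice as a covariate. Tests were first run on simulated data. Ratios used exact permutation tests (scipy 1.17.1) with 0.5 added to counts. Counting intervals cover counting error only.

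Gene coordinates are from GENCODE M21, and promoters from RefSeq on the same build. The members, the 5 pathway lists and the 17 marker lists were chosen with earlier results of these data known. Named beside the 9 genes are called genes of each pathway list, or else the 2 of smallest p, plus the ligands, Cdon and Lgr5, and the 3 genes most like Gli1, Ptch1 and Hhip. A gene that this rule also named is not reported here. CCACCC was added after the consensus search. Foxf1, Bmp4 and Bmp5, and the comparison of separation under other scalings, were chosen after the data were seen. So were Actg2, Synm and the other listed targets named beside Foxf1. Nothing in the labels says that libraries of a group are separate experiments beyond the mice they name, so p-values measure the spread between these libraries.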

Additional observations from a re-analysis of the deposited data

How the results depend on the processing

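The count of genes called by edgeR, 112 of 10148, was 65 with limma-voom, 935 with DESeq2 and 0 with normal libraries 1 and 2 left out (where the lone normal library is assumed to vary like the CAF libraries), and ranged from 0 to 1193 with 1 library left out. Of the 9 Hedgehog genes 0 were called, against 2 with DESeq2 and 0 to 1 with 1 library left out. Log2 fold changes that turned sign were those of Gli1 (-0.55 to 0.86 with 1 library left out, 0.21 with limma-voom), Gli2 (-0.63 to 0.18), Smo (-0.054 to 0.34) and Gli3 (-0.42 against normal library 3 alone). Those of Ptch1, Gas1, Hhip, Boc and Sufu stayed positive in every setting of these fits. Relative to fibroblast RNA, however, the log2 difference was -0.65 for Sufu and -0.03 for Boc. The Hhip/Ptch1 ratio ranged from -0.83 to 0.085 with 1 library left out. Relative to fibroblast RNA, the ranges were -0.80 to 0.019 for Gli3, -0.41 to 0.91 for Hhip and -0.34 to 0.21 for Boc. That of Sufu was -1.18 to -0.32. With 5 genes removed from the fibroblast list, Sufu was at -0.26, Gli3 at 0.047, Boc at 0.35, Ptch1 at 1.04 and Gas1 at 1.01. The groups of the last pair no longer overlapped. The 5 removed genes had higher fitted levels in CAF, though none passed, and their removal raised the difference of every Hedgehog gene alike. With the full list, Gli1 ranged from -1.54 to -0.38 with 1 library left out. The causes were not tested.

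No paired analysis was possible because the replicate numbers were given in accession order and name no shared animal, day or batch. With 3 libraries per group, unequal depth and as few as 3 counts of Gli2 in a library, the intervals of the GLI factors are wide, and a missed threshold does not show that a gene did not differ.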

Other observations

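Of the 17 marker lists, the 4 of gastric gland cells were lower in CAF libraries, with median log2 fold changes of -3.32 for pit and neck cells (2 of 10 tested genes fell by edgeR), -6.16 for chief cells, -5.10 for parietal cells and -4.82 for enteroendocrine cells (0 called by edgeR in each of the last 3, where 4 of 4, 4 of 4 and 4 of 5 had an unadjusted p below 0.05). Squamous forestomach genes had a median of -4.08, with 1 of 6 lower by edgeR. General epithelium had -0.46 and gastric stem cells 0.30, with 0 called by edgeR in each and 5 of 10 and 1 of 4 at an unadjusted p below 0.05. The 5 of general epithelium went both ways, with log2 fold changes of 3.68 for Krt7, 2.88 for Cldn7 and 2.28 for Cldn4 and of -2.03 for Krt19 and -2.24 for Elf3.

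Among the stromal lists, whose medians were not tested against each other, fibroblast identity had a median log2 fold change of 1.09 (0 of 19 called by edgeR), pericytes 1.30 (0 of 7), subepithelial fibroblasts and telocytes 1.01 (0 of 8), adventitial fibroblasts 0.05 (0 of 9), mesothelium 2.94 (0 of 4) and smooth muscle 0.97 (1 of 9, lower). Of the 4 mesothelium genes, Krt19, also in the general epithelium list, was lower (log2 fold change -2.03). The rest were higher, on at most 6 counts in any normal library. The summed mesothelium level (7 genes), mostly Krt19, was 168, 200 and 244 CPM in CAF libraries 1, 2 and 3, against 991, 455 and 471 CPM in normal libraries 1, 2 and 3. In enteric glia 1 of 3 genes rose and the median was 0.12, and in interstitial cells of Cajal 1 of 4 rose and the median was 0.85. Endothelium had 0.36 (0 of 2) and immune cells 0.25 (0 of 5).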
